A study of Homo sapiens with 4 samples.

Results

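The miR-200 family, with miR-141 and miR-429, was examined in cortical interneurons made from human embryonic stem cells (hESCs). Its 9 mature miRNAs were taken by name from the 2656 mature miRNAs of the count table. They are hsa-miR-200a-3p, hsa-miR-200a-5p, hsa-miR-200b-3p, hsa-miR-200b-5p, hsa-miR-200c-3p, hsa-miR-200c-5p, hsa-miR-141-3p, hsa-miR-141-5p and hsa-miR-429. The cells were differentiated in culture from the H1 hESC line. The authors describe such cultures as mostly cortical interneurons, which are inhibitory nerve cells, with a few glial cells among them. Cultures either received ethanol over 7 days, at around 50 to 100 mM (2 libraries), or were kept unexposed for 7 days (2 libraries). Small RNA-seq was used to ask which miRNAs differ with exposure. Both groups came from a single stem cell line, the treatments were done in duplicate, and the exposed cells had 24 h without ethanol before collection. Nothing in the labels says that the duplicates were separate differentiations, so P values measure only the spread between these cultures.

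A miRNA is cut from a hairpin precursor, and each arm of the hairpin (5p or 3p) can yield a mature strand of about the same length. The strand that is loaded into the silencing complex recognizes mRNAs mainly through its seed, bases 2 to 8 from the 5' end. The miR-200 family is best known from epithelia, where its 3p strands repress the mRNAs of ZEB1 and ZEB2. These transcription factors shut off epithelial genes such as E-cadherin, and they repress the miR-200 genes in turn, so high miR-200 and high ZEB tend to exclude each other. In the nervous system the family is known for its role in olfactory neurogenesis. Neither ZEB mRNA nor any other mRNA was measured in these small RNA libraries. The authors also profiled mRNAs of such interneurons, with and without ethanol, by separate mRNA-seq, which was not used here.

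The 5 precursor genes lie in 2 clusters. On chromosome 1 of GRCh38, MIR200B (1167104 to 1167198), MIR200A (1167863 to 1167952) and MIR429 (1169005 to 1169087) follow each other on the plus strand, within 1984 bases and outside any other gene of GENCODE 29. TTLL10 was the nearest protein-coding gene, 4797 bases past MIR429. On chromosome 12, MIR200C (6963699 to 6963766) and MIR141 (6964097 to 6964191) are 330 bases apart on the plus strand, both in the intron of the long noncoding RNA gene MIR200CHG, with PHB2 nearby on the other strand. The counts themselves carry no coordinates.

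Mature sequences from RefSeq (GRCh38.p14) were found for 8 of the 9 members. The 3p strands and miR-429 are shown with the seed in capitals, since the seed divides them into 2 groups that cut across the clusters.
hsa-miR-200b-3p: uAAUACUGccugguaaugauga
hsa-miR-200c-3p: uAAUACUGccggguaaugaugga
hsa-miR-429: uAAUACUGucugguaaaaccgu
hsa-miR-200a-3p: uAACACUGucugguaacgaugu
hsa-miR-141-3p: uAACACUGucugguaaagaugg
The first 3 share the seed AAUACUG, and the last 2 share AACACUG. Sites complementary to these seeds read CAGUAUU and CAGUGUU in an mRNA. In the RefSeq table no other human mature miRNA carried either seed. Partners across the clusters are nearly identical. miR-200b-3p and miR-200c-3p differ at 2 of the 22 positions compared (U11G and A22G, the base of miR-200b-3p first, counted from 1 at the 5' end). miR-200a-3p and miR-141-3p also differ at 2 of 22 positions (C17A and U22G, the base of miR-200a-3p first), and their first 16 bases are identical. How the authors' counting assigned reads that match both partners is not given in the sources used here, so counts within each such pair may be partly exchanged.

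The 5p strands of MIR200B and MIR200A share another seed, AUCUUAC, and that of MIR200C has GUCUUAC. They are shown for the comparison of arms.
hsa-miR-200b-5p: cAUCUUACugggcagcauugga
hsa-miR-200a-5p: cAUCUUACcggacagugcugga
hsa-miR-200c-5p: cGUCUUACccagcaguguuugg
miR-550a-3p also carries GUCUUAC.

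The libraries held between 12100425 and 24858230 counts, and each exposed library was deeper than each unexposed library, so depth and exposure coincide. Levels are given as raw counts and as scaled CPM, CPM being counts relative to library size and TMM scaling a correction of that size for differences in composition. The limit that a count of 0 allows, 3 counts, was between 0.121 and 0.248 CPM before scaling. Among all tested miRNAs the lowest adjusted p for exposure was 0.922. Of 8 neuronal miRNAs, listed to describe the cells, all were found in every library. The list was chosen with earlier results of these data known, so it is no independent check of the cell type. Together the 8 took between 225775 and 302160 scaled CPM. The highest was miR-9-5p (157352 to 254022 scaled CPM), which made up most of the sum in each library. The lowest was miR-138-5p, at 39.2 to 61.9 scaled CPM (504 to 1562 counts). Of 9 miRNAs of pluripotent stem cells, 3 had no count in any library, and the list summed to between 2.70 and 4.20 scaled CPM.

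The family was present at a low level and was carried by 2 of its strands. Its members summed to 82.6 and 113.8 scaled CPM with exposure and to 164.4 and 102.7 without. Before TMM scaling the sums were 93.7 and 111.5 CPM against 139.1 and 109.2 CPM. The groups overlapped on both scales, since unexposed replicate 2 was below exposed replicate 2. miR-200c-3p and miR-200b-3p together made up 94.4% of the 8114 family counts.

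miR-200c-3p, from the chromosome 12 cluster, was the highest member. Exposed replicates 1 and 2 held 1353 and 1842 counts of it, and unexposed replicates 1 and 2 held 1305 and 720, or 53.7 and 75.7 against 110.6 and 56.0 scaled CPM. Unexposed replicate 1 stood above the other 3 libraries, and unexposed replicate 2 lay between the exposed libraries. At a mean of 74.0 ± 26.4 scaled CPM (SD over all 4 libraries) it ranked 191st of the 2656 miRNAs, beside miR-873-3p (mean 74.2) and miR-378i (75.2) above it and miR-125a-3p (73.3) and miR-592 (72.8) below it. The range of each of these 4 neighbours overlapped with its own.

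miR-200b-3p, its near-identical partner from chromosome 1, had 588 and 794 counts with exposure against 556 and 505 without. This is 23.3 and 32.6 against 47.1 and 39.2 scaled CPM, so that both exposed libraries were below both unexposed libraries. Its mean was 35.6 ± 10.1 scaled CPM (SD over 4 libraries), 2.08-fold below miR-200c-3p, and it was lower than miR-200c-3p in all 4 libraries.

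miR-200a-3p, from the middle hairpin of the chromosome 1 cluster, had 62 and 68 counts with exposure against 51 and 54 without. In scaled CPM this is 2.46 and 2.79 against 4.32 and 4.20. The exposed libraries were again both lower. miR-429, from the last hairpin of that cluster, had 35 and 23 against 13 and 17 counts, or 1.39 and 0.94 against 1.10 and 1.32 scaled CPM, and its groups overlapped.

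The remaining members were rarer or absent. miR-200a-5p had 29 and 29 against 9 and 20 counts (1.15 and 1.19 against 0.763 and 1.55 scaled CPM), with overlapping groups. miR-200b-5p had 9 and 12 against 5 and 3 counts. miR-141-3p had 6 and 3 against 0 and 1 counts. As a share of the library this was 0.270 CPM (95% Wilson interval 0.124 to 0.589) and 0.121 CPM (0.0410 to 0.355) against 0 CPM (which allows up to 0.215 CPM) and 0.0826 CPM (0.0146 to 0.468), so that no difference was detectable at this depth. miR-141-5p had 1 count in exposed replicate 1 and 1 in unexposed replicate 2. miR-200c-5p was not found in any library, which allows a share of up to 0.121 to 0.248 CPM. These intervals and limits cover counting error only.

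**Figure D1:**
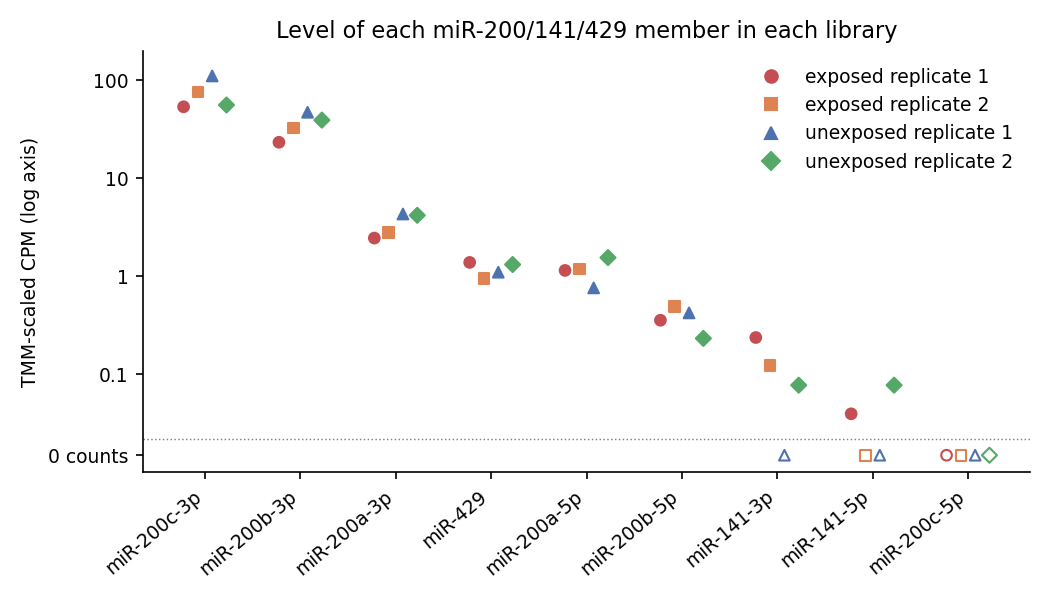
Each point is 1 library, with the level of each member on the vertical axis in TMM-scaled CPM (log axis) and open symbols below the dotted line for libraries with 0 counts. miR-200c-3p (53.7 to 110.6 scaled CPM) and miR-200b-3p (23.3 to 47.1) stand well above all other members, and the lower exposed than unexposed values of miR-200b-3p and miR-200a-3p do not overlap.

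In the order of mean levels, the ranges of miR-200c-3p, miR-200b-3p and miR-200a-3p did not overlap with each other, nor did that of miR-200a-3p with miR-429. miR-200a-3p was 10.3-fold below miR-200b-3p, and miR-429 was 2.90-fold below miR-200a-3p. miR-429 and miR-200a-5p could not be ranked, with means of 1.19 ± 0.203 and 1.16 ± 0.324 scaled CPM (SD over 4 libraries), each being the higher in 2 of 4 libraries. miR-200b-5p followed at 0.377 ± 0.111 scaled CPM. Its range overlapped with that of miR-141-3p, although it was the higher in all 4 libraries. Mature members are 22 or 23 bases long, so these levels differ little by length.

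Precursors of 1 cluster were represented very unequally. MIR200C and MIR141 lie 330 bases apart, but miR-141-3p made up 10 of the 5230 counts of miR-141-3p and miR-200c-3p, or 0.191% (95% exact binomial interval 0.0917 to 0.351%). In single libraries this share was 0.442% (0.162 to 0.958%) and 0.163% (0.0335 to 0.474%) with exposure, against 0% (0 of 1305, which allows up to 0.230%) and 0.139% (0.00351 to 0.770%) without. On chromosome 1 the shares were more even. miR-200a-3p made up 9.54 and 7.89% of the counts of miR-200a-3p and miR-200b-3p with exposure and 8.40 and 9.66% without. The intervals of these 4 shares overlapped, and over all libraries the share was 8.78% (7.73 to 9.91%). miR-429 made up 5.62% of its own and the miR-200b-3p counts in exposed replicate 1 (3.94 to 7.73%), and between 2.28 and 3.26% in the other 3 libraries.

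The balance between the clusters was alike in 3 libraries and differed in the remaining one. miR-200c-3p took 69.7% (67.6 to 71.7%) and 69.9% (68.1 to 71.6%) of the counts of miR-200c-3p and miR-200b-3p in the exposed libraries. The share was 70.1% (68.0 to 72.2%) in unexposed replicate 1 and 58.8% (56.0 to 61.5%) in unexposed replicate 2. The unexposed cultures thus differed from each other by more than unexposed replicate 1 differed from the exposed cultures. Counted over all members, the chromosome 12 cluster held 65.3 and 66.6% with exposure and 67.3 and 54.7% without.

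Arm use differed between the precursors. For MIR200A the 5p strand was 27.0% of both arms over all libraries (87 of 322 counts, 95% exact binomial interval 22.2 to 32.2%), with 31.9 and 29.9% with exposure and 15% (9 of 60 counts) and 27.0% without, and with overlapping intervals. For MIR200B it was 1.17% (29 of 2472 counts, 0.787 to 1.68%). For MIR200C it was 0 of 5220 counts, which allows a share of up to 0.0575%. For MIR141 only 12 counts were found, 2 of them 5p. By seed, strands with AAUACUG made up between 95.8 and 97.4% of the 3p and miR-429 counts of a library, and those with AACACUG between 2.60 and 4.24%.

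**Figure D2:**
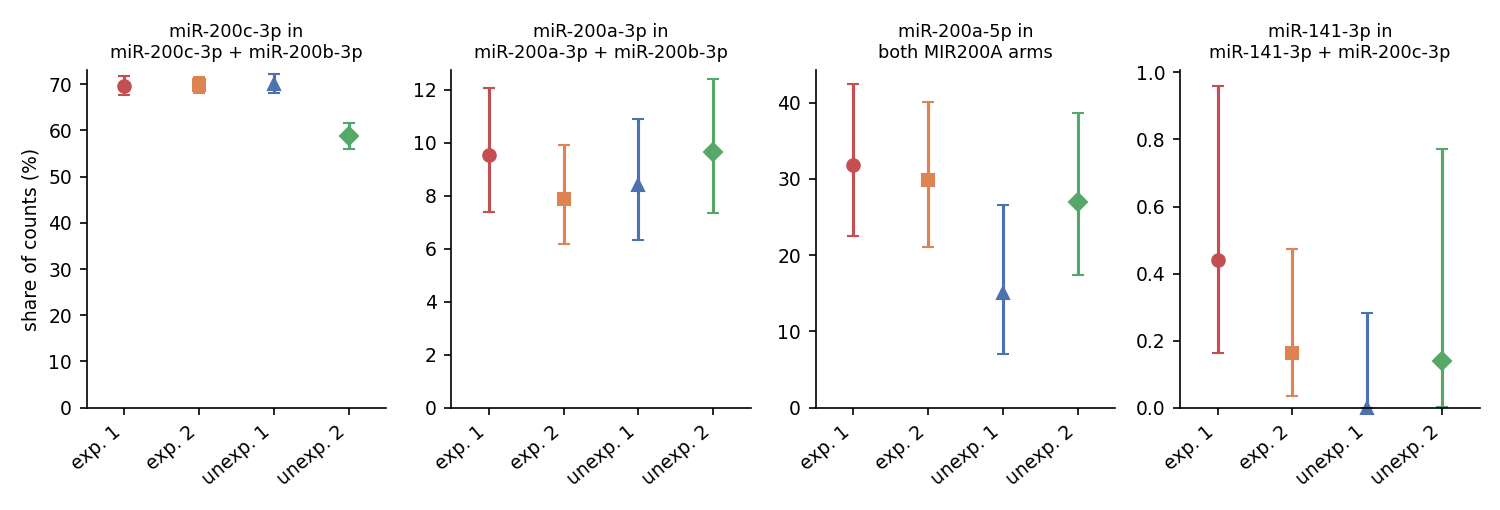
Each panel gives a share of counts in percent on the vertical axis for the 2 exposed (exp.) and 2 unexposed (unexp.) libraries, with 95% exact binomial intervals, which cover counting error only. The share of miR-200c-3p is near 70% in 3 libraries and 58.8% in unexposed replicate 2, and the share of miR-141-3p is under 0.5% in all 4.

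The effect of exposure was tested by edgeR's quasi-likelihood method over 863 miRNAs that passed a filter on low counts, of which 5 were members, each above the filter's level of 0.553 CPM in all 4 libraries. The other 4 (miR-200b-5p, miR-200c-5p and both arms of MIR141) were too rare to be tested. With a change of over 2-fold and an unadjusted P under 0.05 there were 0 of the 5, against 2.32% of all tested miRNAs. An unadjusted P under 0.05 was found for 1 of the 5, against 39 of the 863, or 4.52%. An adjusted p under 0.05 was found for 0 of the 5 and for 0% of all tested miRNAs in edgeR (0 also in limma-voom and DESeq2).

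The 3p strands of MIR200A and MIR200B were the members furthest from no difference. The level of miR-200a-3p was 2.63 ± 0.237 scaled CPM (SD, n = 2) with exposure and 4.26 ± 0.0897 scaled CPM (SD, n = 2) without. The log2 fold change came to -0.70 (standard error 0.30, 95% interval -1.39 to -0.0052), with an unadjusted P of 0.0487 and an adjusted p of 0.922 in edgeR. In DESeq2 the log2 fold change of miR-200a-3p was -0.73 (unadjusted P of 0.0921), in limma-voom -0.70 (0.0436), and in edgeR without TMM factors -0.55 (0.194). miR-200b-3p was at 28.0 ± 6.58 and 43.2 ± 5.58 scaled CPM (SD, n = 2 each), which gave -0.63 as log2 fold change (standard error 0.28, 95% interval -1.27 to 0.019), with an unadjusted P of 0.0555 and an adjusted p of 0.922 in edgeR. In DESeq2 the log2 fold change of miR-200b-3p was -0.66 (unadjusted P of 0.0450), in limma-voom -0.64 (0.0533), and in edgeR without TMM factors -0.48 (0.192). For these 2 of the 5 members both exposed libraries were below both unexposed libraries, which was so for 14.6% of all tested miRNAs. The opposite, both exposed libraries above, was found for 0 of the 5 and for 18.8% of all tested miRNAs. With 2 cultures per group a two-sided exact permutation test of 1 miRNA cannot give a p under 0.33. The sequences of miR-200a-3p and miR-200b-3p share 18 of 22 positions, and their genes are 664 bases apart, so these members are not independent of each other.

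miR-200c-3p was at 64.7 ± 15.6 scaled CPM (SD, n = 2) with exposure and 83.3 ± 38.7 scaled CPM (SD, n = 2) without. The log2 fold change came to -0.36 (standard error 0.36, 95% interval -1.19 to 0.46), with an adjusted p of 0.937 in edgeR. The sign rested on unexposed replicate 1, without which it was 0.20, and without unexposed replicate 2 it was -0.81 (unadjusted P of 0.00506 and adjusted p of 0.143 in edgeR). In both of these fits the single unexposed library was assumed to vary like the exposed libraries, and without unexposed replicate 2 the miRNAs past 2-fold and an unadjusted P of 0.05 numbered 44 in place of 20. miR-429 had a log2 fold change of -0.056 (95% interval -0.94 to 0.82), and miR-200a-5p of 0.0013 (95% interval -0.98 to 0.98). The sign of each changed with the scaling. Intervals of this width include a 1.5-fold difference in either direction for miR-429 and miR-200a-5p. The median log2 fold change was -0.36 over the 5 members and -0.010 over all tested miRNAs. The former is the value of miR-200c-3p, so its sign too rested on unexposed replicate 1.

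**Figure D3:**
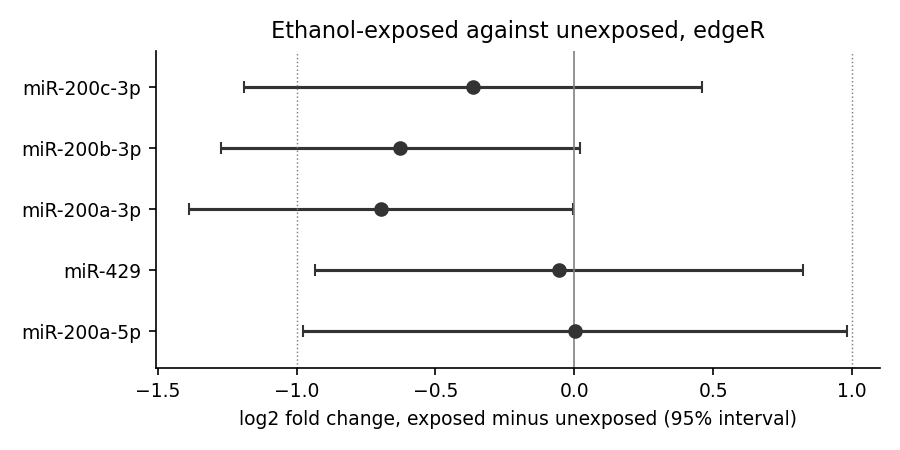
The 5 members that could be tested are shown by their log2 fold change, exposed minus unexposed, from edgeR (points) with 95% intervals (bars), and dotted lines mark a fold change of 2. The intervals of miR-200c-3p, miR-200b-3p, miR-429 and miR-200a-5p include 0, and that of miR-200a-3p ends just below it, at -0.0052.

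Other miRNAs known from epithelia were read from a list of 10, of which 3 (miR-182-5p, miR-183-5p and miR-96-5p) form the miR-183 cluster, known from sensory cells as well. Of these 9 could be tested, 6 with a positive and 3 with a negative log2 fold change, and none (0) was past an unadjusted P of 0.05 in edgeR. The median log2 fold change was 0.063. Taken singly, miR-192-5p had both exposed libraries below both unexposed libraries, as had 14.6% of all tested miRNAs. The opposite held for miR-203a-3p and miR-375-3p, and for 18.8% of all tested miRNAs. For the rest of those tested the groups overlapped. The summed level of the list was 1103 and 1336 scaled CPM with exposure and 1571 and 1141 scaled CPM without, with overlapping groups. The miR-183 cluster took between 37.2 and 45.7% of these sums, and the other 7 miRNAs summed to 656 and 737 against 853 and 717 scaled CPM, again with overlapping groups. The highest was miR-192-5p, a miRNA of gut, liver and kidney epithelia, at 488 to 670 scaled CPM, and its log2 fold change was -0.26 with a standard error of 0.21. The lowest was miR-205-5p, known from stratified epithelia, with 0 to 2 counts per library. miR-192-5p was above every member of the miR-200 family, and miR-205-5p was at or near 0.

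Lists for other cell types were read in the same way. The 6 mesenchymal miRNAs summed to between 81.5 and 111.7 scaled CPM, led by miR-143-3p (54.8 to 86.9) with miR-145-5p lowest (3 to 6 counts). The 5 glial and choroid plexus miRNAs summed to between 873 and 1084 scaled CPM, led by miR-204-5p (787 to 980), with miR-219a-5p lowest (3 to 17 counts). None of the tested miRNAs of these lists, nor of the pluripotent list, had an unadjusted P under 0.05 in edgeR (0 of 5, 0 of 4 and 0 of 2, in that order). Among the neuronal miRNAs it was under 0.05 for 1 of 8, miR-124-3p, against 4.52% of all tested miRNAs. The levels of miR-124-3p were 5406 and 3362 scaled CPM with exposure against 2948 and 2190 without. This is a log2 difference of 0.77 (standard error 0.30, unadjusted P of 0.0316 and adjusted p of 0.922 in edgeR). Fewer cells of a type and less RNA per cell cannot be told apart in such bulk libraries.

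**Figure D4:**
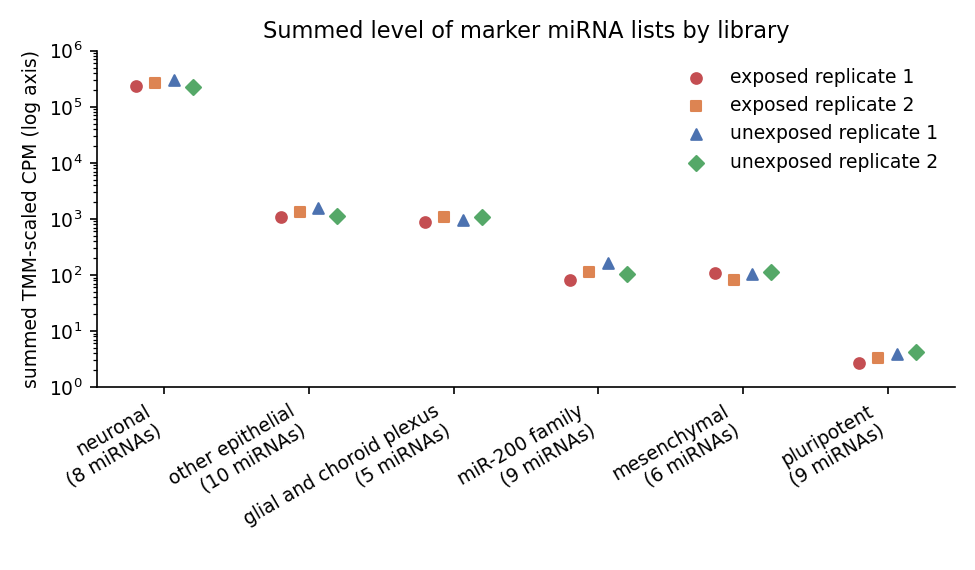
Points give the summed level of each list in each library in TMM-scaled CPM (log axis), with the number of miRNAs of each list below it. The miR-200 family (82.6 to 164.4 scaled CPM) lies near the mesenchymal list, below the other epithelial miRNAs and far below the neuronal miRNAs, and the pluripotent list has both exposed libraries below both unexposed libraries on this scale, but not before TMM scaling (3.06 and 3.26 against 3.23 and 4.46 CPM).

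The miRNAs whose pattern over the 4 libraries was most like that of miR-200c-3p were found by the Euclidean distance between centred log2 CPM values, among 858 tested miRNAs outside the family. The nearest was miR-452-5p (distance 0.0420), with 45.1 and 62.6 scaled CPM with exposure and 92.7 and 45.3 without. miR-5002-5p (0.104), miR-182-5p (0.114), miR-642a-5p (0.136) and miR-103a-3p (0.144) followed. In each of these 5 miRNAs unexposed replicate 1 was the highest library, as it was for miR-200c-3p. That library also had the lowest TMM factor, 0.846 against 0.979 to 1.13 in the others. Before TMM scaling miR-200c-3p was at 60.9 and 74.1 CPM with exposure and 93.6 and 59.5 CPM without, so unexposed replicate 1 was still its highest library. The part of scaling in the shared pattern was not tested. miR-182-5p, of the miR-183 cluster, was at 222.6 and 319.1 against 427.2 and 216.8 scaled CPM. Its log2 fold change of -0.25 (standard error 0.34) changed sign without unexposed replicate 1, to 0.31. Since these 5 miRNAs were picked for their likeness to miR-200c-3p, shared highest libraries and sign changes are no separate observation. With 4 libraries such likeness is a description only.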

How the data were processed

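Small RNA libraries (NEBNext) of 2 ethanol-exposed and 2 unexposed cultures were analysed. Raw counts per mature miRNA, not normalized, were deposited by the authors, who had run the CAP-miRseq workflow on the reads. The submitters' processing notes name the build hg19. Its version and settings, and the release of the miRNA annotation, are not given in the sources used here. Adapter ligation can favour some sequences, so levels of different miRNAs are shares of reads, not of molecules.

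Groups and replicate numbers came from the sample titles. Counts were fitted for all miRNAs together with edgeR 4.0.16 in R 4.3.3: filterByExpr (minimum count 10, minimum total 15), TMM factors, the quasi-likelihood test without covariates and Benjamini-Hochberg adjustment. Standard errors and intervals of the log2 fold change were derived from the F statistic. The fit was repeated with DESeq2 1.42.0, with limma-voom (limma 3.58.1), under other scalings and filters, with a replicate block, and without each library in turn. The procedure was tested on simulated data. Replicates differed far beyond sampling noise (chi-square per degree of freedom 795 for exposed and 712 for unexposed). Sequences came from RefSeq and positions from GENCODE 29. All members were named, as were the highest and lowest miRNA of each list, the nearest levels and the nearest patterns. Members and lists were chosen with earlier results of these data known.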

Additional observations from a re-analysis of the deposited data

How the results depend on the processing

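With 2 cultures per group, 1 stem cell line and exposed libraries that were all deeper, small differences between the groups cannot be resolved, and members under about 10 counts are limited by counting error. The number of members with a change of over 2-fold at an unadjusted P under 0.05 was 0 under each alternative and without each library, as was that of the other epithelial miRNAs. For all tested miRNAs it was 20, and it was 10 with DESeq2, 49 with at least 1 count in any library, 12 with CPM above 1 in at least 2 libraries, 11 with at least 10 counts in every library, and between 10 and 44 with 1 library left out. The number past an adjusted p of 0.05 was 6 with at least 1 count in any library and between 1 and 18 with 1 library left out, against 0 otherwise. With at least 1 count in any library 8 members were tested. miR-200b-3p and miR-200a-3p kept a negative sign throughout, with adjusted p of at least 0.189 and 0.440. The unadjusted P of miR-200a-3p was under 0.05 in 5 of 10 alternatives and in 0 of 4 fits with a library left out (0.0507 to 0.237), and that of miR-200b-3p in 3 of 10 and 1 of 4. The log2 fold change of miR-200a-5p was -0.025 with DESeq2, -0.033 with DESeq2's size factors, -0.11 with upper quartile scaling, -0.0058 with CPM above 1 in at least 2 libraries, and -0.41 to 0.58 with 1 library left out. That of miR-429 was 0.10 with library size only and -0.36 to 0.20 with 1 library left out, where miR-200c-3p ranged from -0.81 to 0.20 and miR-182-5p from -0.69 to 0.31. The cause was not tested. The correlation of replicate differences between the groups was -0.214. The labels state no shared day or batch, so whether replicate numbers pair the samples is not known. With the replicate block 16 miRNAs were past both thresholds. In that fit the log2 fold change of miR-200a-3p was -0.70 (P of 0.112 in edgeR) and that of miR-200b-3p -0.64 (P of 0.0831 in edgeR). Crossing the numbers in the replicate block, an alternative added once the data had been seen, gave 21 miRNAs past both thresholds. Of the 5 members 0 were past both. The unadjusted P in edgeR was 0.0372 for miR-200a-3p and 0.0358 for miR-200b-3p, each with an adjusted p of 0.669. This added alternative is among the 10 counted above for each of these 2 members.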

Other observations

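The inequality between MIR200C and MIR141 was set beside other neighbouring precursors, a comparison chosen after the values were seen. Among pairs of adjacent precursors on 1 strand with up to 1 kb between their mature strands, each with a single locus in RefSeq and at least 1 member at 1 scaled CPM, 68 pairs were found. Taking the higher arm of each precursor, the median ratio within a pair was 18.2-fold. MIR200C and MIR141 differed 674-fold in mean scaled CPM, on 10 counts of miR-141-3p in all, and 16 of the 68 pairs, this one included, were at least as unequal. Any pair whose lower precursor had no counts was taken as more unequal. Whether the precursors of a pair are transcribed together was not considered, so the pairs are not a set of known clusters. For MIR200B and MIR200A the ratio was 10.3-fold. With precursors up to 10 kb apart it was 21 of 107 pairs. These are descriptions, and pairs that share a locus or a cluster are not independent.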
